A study of Mus musculus with 32 samples.

Results

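Rpl22 encodes a protein of the large (60S) ribosomal subunit, and Rpl22l1 encodes its paralog, which can take the same place in the ribosome. Both genes were found in the deposited exon counts by their symbols, which gave 2 rows of the 24411 in the table. Rpl22 is also the gene that carries the tag in RiboTag mice. In that allele a floxed copy of the last coding exon is followed by a second copy with the haemagglutinin (HA) epitope, so that Cre recombination makes a cell's own Rpl22 encode an HA-tagged protein and anti-HA antibody pulls down its ribosomes with their mRNA. In mouse, RPL22 is known to repress Rpl22l1, and mice without Rpl22 have more Rpl22l1 and impaired development of alpha-beta T cells. The counts sum exons, so transcripts of the tagged and the untagged Rpl22 allele cannot be told apart.

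The series holds 32 libraries of polyadenylated RNA from the brains of 8 C57BL/6 mice. Of these, 4 were Sall1-CreER:RPL22-HA and 4 were Cx3cr1-CreER:RPL22-HA, so that Cre followed the promoter of Sall1, a transcription factor gene of microglia, or of Cx3cr1, the fractalkine receptor gene of microglia and other macrophages. Each brain gave 4 samples: anti-HA precipitate from whole homogenate (HA), anti-HA precipitate from sorted microglia (SortIP), sorted microglia without precipitation (Sort), and precipitate from homogenate with an IgG1 isotype antibody (IgG). All mice carried the tagged allele and all received 5 mg of tamoxifen by gavage, 4 times with a day between, when 4 to 6 weeks old. No group without tag, Cre or tamoxifen is analysed here, and the sources used here do not give the age at collection. For the 8 sorted libraries of the Cx3cr1 line the titles and the descriptions give opposite assignments to SortIP and Sort. The column names of the deposited counts follow the descriptions. These 8 libraries are grouped by title and called titled SortIP and titled Sort.

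The exon that the tag follows shows how closely related the genes are. In the reference annotation (GENCODE vM21, GRCm38) the last coding exon, exon 4 of 4 in both genes, is 145 bases long in each. Aligned base by base, 108 of 145 positions are identical. The exon lies at chr4:152332280-152332424 (plus strand) in Rpl22 and at chr3:28807187-28807331 (plus strand) in Rpl22l1. The sequences below run 5′ to 3′ from the reference genome up to the stop codon, with the positions that differ between the genes in capitals.
Rpl22: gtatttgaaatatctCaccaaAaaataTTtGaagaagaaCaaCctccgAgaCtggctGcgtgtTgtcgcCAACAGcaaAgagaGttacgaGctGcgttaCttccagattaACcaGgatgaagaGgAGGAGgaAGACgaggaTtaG
Rpl22l1: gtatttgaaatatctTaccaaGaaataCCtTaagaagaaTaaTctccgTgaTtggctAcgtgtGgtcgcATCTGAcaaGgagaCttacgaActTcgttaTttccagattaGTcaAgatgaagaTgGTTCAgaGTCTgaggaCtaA

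Over the whole coding sequence, which has 387 bases in Rpl22 and 369 in Rpl22l1, 259 of 369 aligned positions were identical (70.2%). The longest run without a difference was 26 bases. Base composition is another difference. The Rpl22 transcript has a GC content of 49.2%, close to the median of 49.3% over all genes. The Rpl22l1 transcript has 40.6%, and only 9.0% of all genes lie lower. Of the 79 cytosolic ribosomal protein genes in the table, which ranged from 41.3% to 60.8% GC, 0 lie below Rpl22l1. Stretches of 50 bases are shared by Rpl22 with 4 other annotated genes, Rpl22-ps1 among them, and by Rpl22l1 with 3. Gm15421 shares 284 of these with Rpl22l1, counted at every start position, so that they overlap. The sources used here do not say how reads that fit several places were counted, so both levels carry that uncertainty.

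The deposited table places Rpl22 (NM_001277114) on chromosome 4 from 151699835 to 151708191 and Rpl22l1 (NM_026517) on chromosome 3 from 28704433 to 28706337 (mm9, plus strand). Its exon lengths are 2217 bases for Rpl22 and 471 bases for Rpl22l1. Levels are given as counts per 1e6 gene counts of a library (CPM), and gene counts per library ranged from 249881 to 4047465. Lists of 10 marker genes each were measured as a check of the cells. Microglial markers took 0.419% to 0.546% of counts in Sall1 HA, 6.46% to 7.65% in Cx3cr1 HA, 4.93% to 7.55% over the 16 sorted libraries and 0.0745% to 0.119% in IgG. Astrocyte markers took 1.22% to 1.44% in Sall1 HA, against 0.0855% to 0.116% in Cx3cr1 HA and 0.384% to 0.535% in IgG. Oligodendrocyte markers took 1.04% to 1.27% in Sall1 HA and 0.151% to 0.22% in Cx3cr1 HA. By these sums the Sall1 HA precipitate held more astrocyte and oligodendrocyte marker RNA than microglial marker RNA, and the part of this in the levels of Rpl22 and Rpl22l1 was not tested. Titled SortIP of the Cx3cr1 line (4.93% to 5.65% microglial markers) lay at the level of Sall1 Sort (4.94% to 5.56%), and titled Sort (6.72% to 7.55%) at that of Sall1 SortIP (6.74% to 7.4%). In bulk libraries, more cells of a type and more RNA per cell cannot be told apart.

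Rpl22 varied less within groups than Rpl22l1, and its level was lowest in the IgG precipitates. Its coefficient of variation within groups was 3.62% to 15.5%, against 18.9% to 72.0% for Rpl22l1. Rpl22l1 had fewer reads than Rpl22 in every library and so a larger relative counting error, whose part in this was not tested. In Sall1 HA Rpl22 had 304.4, 334.0, 282.3 and 321.7 CPM (mice 17, 21, 7 and 9), and in Sall1 IgG 114.4, 135.9, 144.8 and 138.6 CPM (the same mice). Every HA library of the line lay above every IgG library, as groups without overlap did in either direction for 64% of all genes tested. In Cx3cr1 HA it had 250.6, 275.3, 263.8 and 251.4 CPM (mice 1 to 4), and in Cx3cr1 IgG 121.3, 117.8, 111.7 and 114.2 CPM. Again the groups did not overlap, which held for 60.6% of all genes tested, and the HA values were near each other.

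**Figure D1:**
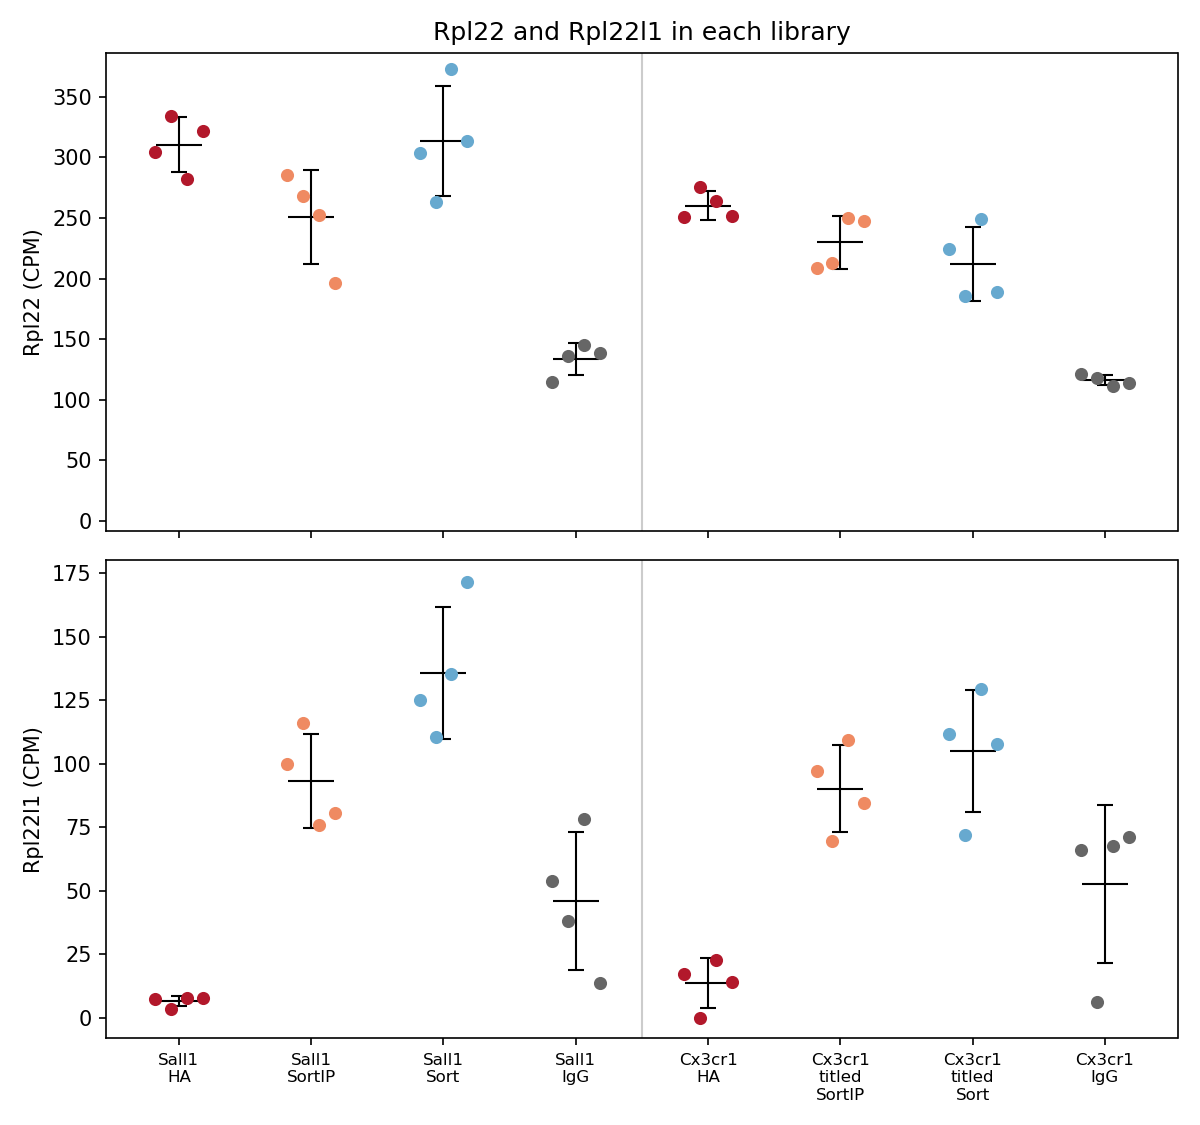
Level of Rpl22 (top) and Rpl22l1 (bottom) in each of the 32 libraries, in counts per 1e6 gene counts (CPM, linear axes), by group of 4 mice. Points are libraries and the bar and whiskers are mean ± SD. Rpl22 is lowest in both IgG groups, whereas Rpl22l1 is lowest in both HA groups, at 0 to 22.9 CPM, and highest in sorted cells.

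Sorted microglia had levels of Rpl22 above those of IgG as well. In the Sall1 line SortIP libraries had 285.7, 268.1, 252.8 and 196.0 CPM and Sort libraries 303.4, 263.1, 373.1 and 313.7 CPM (mice 17, 21, 7 and 9). The Cx3cr1 line had in titled SortIP 208.9, 212.9, 249.9 and 247.3 CPM and titled Sort 224.2, 185.6, 249.3 and 189.0 CPM (mice 1 to 4). SortIP and Sort overlapped in both lines, and no sorted library was as low as any IgG library. Sort and IgG were without overlap for 72.5% of all genes tested in the Sall1 and 69.8% in the Cx3cr1 line.

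Ordered by group mean, Rpl22 was highest in Sall1 Sort (313.3 ± 45.4 CPM, SD, n = 4 here and below), followed by Sall1 HA (310.6 ± 22.4), Cx3cr1 HA (260.3 ± 11.7), Sall1 SortIP (250.6 ± 38.8), Cx3cr1 titled SortIP (229.8 ± 21.8), Cx3cr1 titled Sort (212.0 ± 30.4), Sall1 IgG (133.5 ± 13.2) and Cx3cr1 IgG (116.2 ± 4.21). Between neighbours in this order, the steps from Sall1 HA to Cx3cr1 HA and from Cx3cr1 titled Sort to Sall1 IgG separated all 4 libraries from all 4 (exact two-sided permutation p = 0.0286 each, the smallest that 4 against 4 allows). After adjustment over the 14 neighbour tests of both genes these became exact p = 0.2, and no neighbour pair passed. A pass would need most of the 14 tests at the smallest p, so the adjusted values decide little. The other 5 pairs overlapped.

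Rpl22l1 followed a different order, in which the HA precipitates were lowest. In Sall1 HA it had 7.40, 3.63, 7.92 and 7.71 CPM (18, 11, 15 and 18 reads in mice 17, 21, 7 and 9), against 53.9, 37.9, 78.1 and 13.6 CPM in Sall1 IgG. The groups did not overlap, although mouse 9 of the IgG group lay far below the other 3. In Cx3cr1 HA it had 17.4, 0, 22.9 and 14.0 CPM (10, 0, 10 and 4 reads in mice 1 to 4), against 65.9, 6.07, 67.7 and 71.2 CPM in Cx3cr1 IgG. Here the groups overlapped, because the IgG library of mouse 2 was low. The 0 reads of mouse 2 in Cx3cr1 HA allow a level of up to 9.18 CPM (3 counts, counting error only), and with 10 reads or fewer in each Cx3cr1 HA library the values are coarse.

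Sorted cells held the most Rpl22l1. Sall1 SortIP had 100.0, 116.1, 76.0 and 80.4 CPM and Sall1 Sort 125.2, 110.5, 135.3 and 171.5 CPM (mice 17, 21, 7 and 9). Titled SortIP of the Cx3cr1 line had 97.3, 69.6, 109.5 and 84.5 CPM and titled Sort 111.6, 72.0, 129.4 and 107.8 CPM (mice 1 to 4). All 16 sorted libraries lay above all 8 HA libraries. HA and SortIP were without overlap, in either direction, for 73.5% of all genes tested in the Sall1 and 64.2% in the Cx3cr1 line, so this outcome is common. By group mean the order was Sall1 Sort (135.6 ± 26.0 CPM), Cx3cr1 titled Sort (105.2 ± 24.0), Sall1 SortIP (93.1 ± 18.5), Cx3cr1 titled SortIP (90.2 ± 17.1), Cx3cr1 IgG (52.7 ± 31.2), Sall1 IgG (45.9 ± 27.1), Cx3cr1 HA (13.6 ± 9.78) and Sall1 HA (6.67 ± 2.03). No pair of neighbours passed (smallest exact permutation p = 0.0571, adjusted 0.266, for Cx3cr1 titled SortIP and Cx3cr1 IgG). The test does not pair samples of 1 brain, and by CPM titled SortIP was above IgG in each mouse of that line. As for Rpl22, the adjusted values decide little.

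The relation between the paralogs was measured within each library as the log2 ratio of Rpl22l1 to Rpl22, each in counts per base of its exon length with 0.5 added to each count. It averaged −3.32 ± 0.61 in Sall1 HA and −2.45 ± 1.89 in Cx3cr1 HA. It was 0.81 ± 0.24 in Sall1 SortIP, 0.88 ± 0.25 in Cx3cr1 titled SortIP, 1.02 ± 0.25 in Sall1 Sort and 1.21 ± 0.24 in Cx3cr1 titled Sort. In IgG it was 0.45 ± 1.11 in the Sall1 and 0.61 ± 1.74 in the Cx3cr1 line. All 8 HA libraries were below 0 and all 16 sorted libraries above it, whereas the IgG libraries lay on both sides. By CPM, HA and SortIP were without overlap for 73.5% of all genes tested in the Sall1 and 64.2% in the Cx3cr1 line. How often ratios of other genes to Rpl22 part these groups was not measured, so nothing particular to the paralogs is read from this. Which gene is the higher one per base depends on the Rpl22 isoform. The annotation also lists one of 474 bases beside those of 2051 and 2048, and with that length every ratio would move by −2.23 on the log2 scale. Differences between libraries do not move with that choice if all libraries hold the same isoforms in the same shares, which was not measured.

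**Figure D2:**
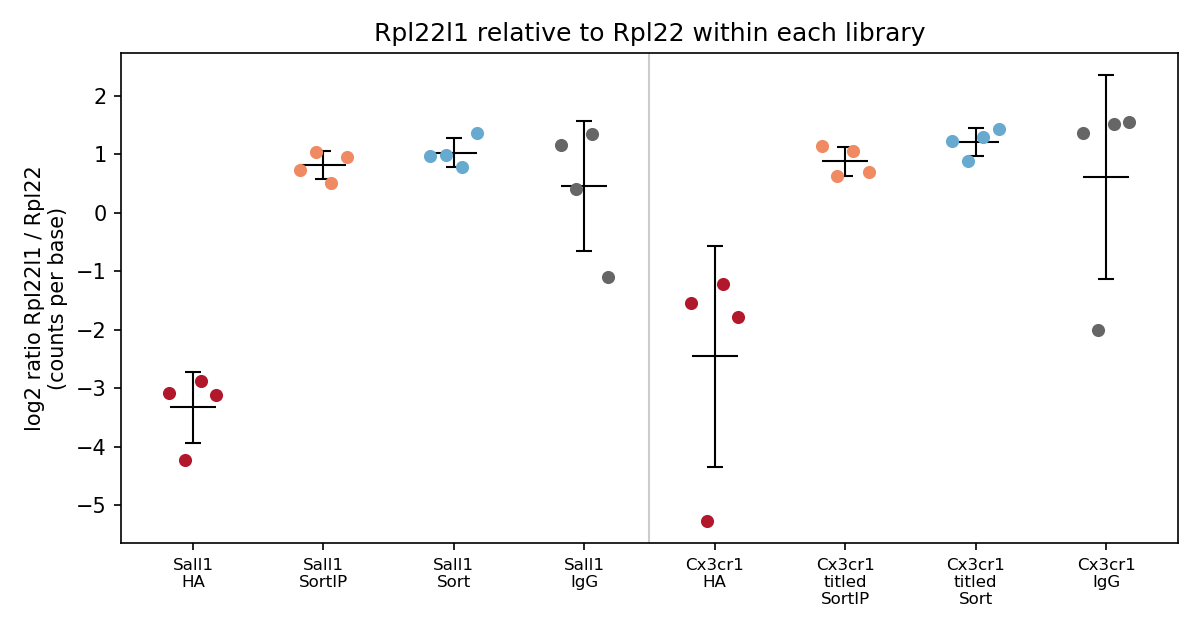
Log2 ratio of Rpl22l1 to Rpl22 counts per base of exon length in each library, by group. Points are libraries and the bar and whiskers are mean ± SD (n = 4). The 16 sorted libraries all lie between 0.51 and 1.43, the 8 HA libraries between −5.27 and −1.23, and 1 IgG library of each line lies below 0.

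The ratio was lower in HA than in SortIP, with a log2 difference of −4.13 ± 0.33 (SE) in the Sall1 line and −3.33 ± 0.95 in the Cx3cr1 line, without overlap (exact permutation p = 0.0286 each, adjusted 0.124 over 13 comparisons). HA minus IgG was −3.77 ± 0.63 in the Sall1 line, also without overlap (exact permutation p = 0.0286, adjusted 0.124). By CPM, 64% of all genes tested were without overlap in that comparison. In the Cx3cr1 line the ratio differed by −3.06 ± 1.28 in HA minus IgG (exact permutation p = 0.114). In mice 1 to 4 the log2 ratio was −1.548, −5.265, −1.225 and −1.775 in HA and 1.356, −1.998, 1.515 and 1.555 in IgG. It was lower in HA in each mouse, and mouse 2 was lowest in both. The test and its SE do not pair samples of 1 brain, so they include the spread between mice. A paired test of this difference was not run. The smallest exact p of 4 against 4 libraries is 0.0286, and no ratio comparison passed after adjustment. A pass would need most of the 13 comparisons at that smallest p, so the adjusted values decide little. Without HA of mouse 2, the library with 0 reads of Rpl22l1, the difference from titled SortIP in the Cx3cr1 line was −2.39. The other ratio comparisons had exact permutation p of 0.143 or more, and the difference between the lines in HA over IgG was −0.71 ± 0.61 (p = 0.229).

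Anti-HA precipitation from homogenate was compared with IgG to see which transcripts came down with tagged ribosomes above background. Rpl22 was higher in HA than in IgG in both lines, and Rpl22l1 went the other way. Each gene was tested with edgeR's quasi-likelihood test, with TMM scaling and Benjamini-Hochberg adjustment over all genes tested, and called at an adjusted p under 0.05. The log2 fold change of Rpl22 was 1.63 ± 0.15 (SE, adjusted p = 2.68e-08) in the Sall1 line and 1.56 ± 0.17 (adjusted p = 7.37e-07) in the Cx3cr1 line. That of Rpl22l1 was −2.33 ± 0.47 (5.03-fold lower, adjusted p = 0.000426) in the Sall1 line, so both genes were called there, while 71.3% of all genes tested were called in either direction. Of all genes 64.5% were called in the Cx3cr1 line, where Rpl22l1 had a log2 fold change of −1.47 ± 0.80 (adjusted p = 0.133).

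Whether that value in the Cx3cr1 line is called depends on the fit, and among single libraries on IgG of mouse 2. By CPM, Rpl22l1 was lower in HA than in IgG in each mouse of the line. With all libraries kept and the mouse as a block the value was −1.53 ± 0.34 (adjusted p = 0.000377, edgeR). Without the block and without the IgG library of mouse 2 it was −1.77 ± 0.35 (adjusted p = 5.02e-05, edgeR). TMM scaling sets the zero of these folds. Without it, the median of all genes moved by about 0.4 on the log2 scale, to −0.44 in the Sall1 and −0.70 in the Cx3cr1 line, and Rpl22 was higher by 1.22 and 1.14 and Rpl22l1 at −2.72 and −1.88. The enrichment over IgG did not differ detectably between the lines for Rpl22 (Sall1 minus Cx3cr1 0.02 ± 0.20, adjusted p = 0.951) or for Rpl22l1 (−0.94 ± 1.10, adjusted p = 0.569), in an edgeR interaction that called 32.2% of all genes. For Rpl22l1 that depends on the fit, since with the mouse as a block and transcript GC and length adjusted the difference was −1.40 ± 0.51 (adjusted p = 0.0266, edgeR).

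**Figure D3:**
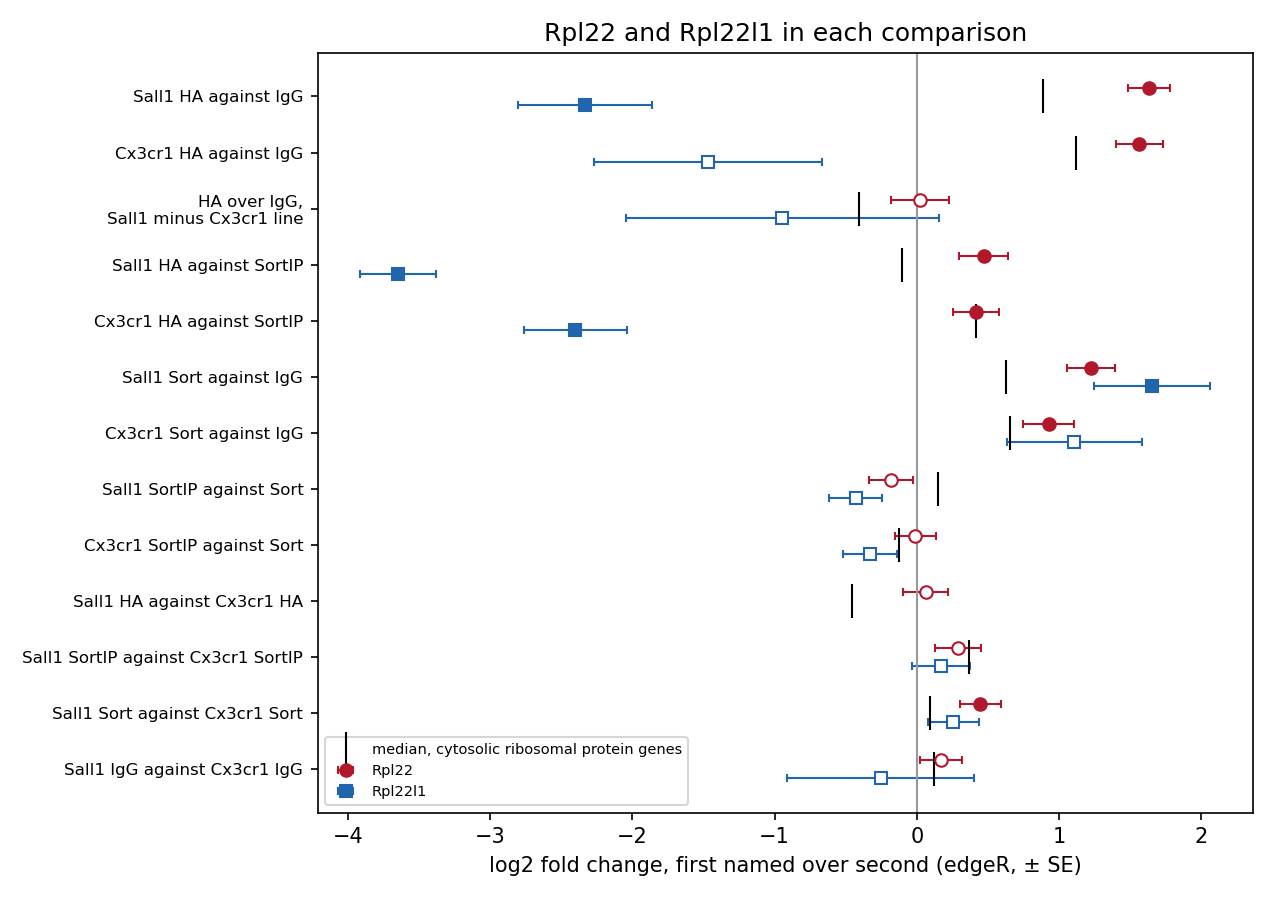
Log2 fold change (edgeR, ± SE) of Rpl22 (circles) and Rpl22l1 (squares) in 13 comparisons, the group named first over the group named second. Filled symbols have an adjusted p under 0.05, and vertical ticks give the median of the cytosolic ribosomal protein genes. Rpl22 and Rpl22l1 part in the 4 comparisons of HA with IgG or SortIP and lie on the same side of 0 in both comparisons of Sort with IgG.

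Sorting and homogenization give different starting material for the same antibody, and HA was therefore also compared with SortIP (titled SortIP in the Cx3cr1 line). Rpl22 was higher in HA by 0.47 ± 0.17 in the Sall1 line (adjusted p = 0.0118, edgeR) and by 0.42 ± 0.16 in the Cx3cr1 line (adjusted p = 0.0276, edgeR). The groups by CPM overlapped in the Sall1 line, where the largest SortIP value was 285.7 and the smallest HA value 282.3 CPM. Neither call held without TMM scaling (0.31, adjusted p = 0.082, and 0.18, adjusted p = 0.349). In the Sall1 line it was also lost without SortIP of mouse 9 (0.32, adjusted p = 0.0792), and in the Cx3cr1 line without HA of mouse 2 (0.39, adjusted p = 0.0557) or titled SortIP of mouse 1 (0.33, adjusted p = 0.131).

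Rpl22l1 was lower in HA than in SortIP by far more. Its log2 fold change was −3.65 ± 0.27 in the Sall1 line (adjusted p = 4.72e-15, edgeR) and −2.40 ± 0.36 in the Cx3cr1 line (adjusted p = 7.3e-06, edgeR). The groups did not overlap, as for 73.5% of all genes tested in the Sall1 and 64.2% in the Cx3cr1 line. Of all genes tested, 80.2% were called in the Sall1 and 70.1% in the Cx3cr1 line in these comparisons. A call is therefore common here, and both genes were called in both lines.

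The libraries low in Rpl22l1 share a trend with base composition. For each library, Spearman's rho was taken across 12108 genes between transcript GC and the gene's log2 CPM relative to its mean over all libraries. Genes are not independent replicates, and rho is given as a description. It was 0.351 to 0.389 in Sall1 HA and 0.44 to 0.497 in Cx3cr1 HA, so GC-rich transcripts were relatively high there. In the 16 sorted libraries it was −0.384 to −0.167. The other 6 IgG libraries had −0.0044 to 0.136, but mouse 2 of Cx3cr1 IgG had 0.383 with 6.07 CPM of Rpl22l1, and mouse 9 of Sall1 IgG had 0.23 with 13.6 CPM. Those are the IgG libraries lowest in Rpl22l1 in each line, and in Rpl22 both lay within the range of the other 3 libraries of their group.

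**Figure D4:**
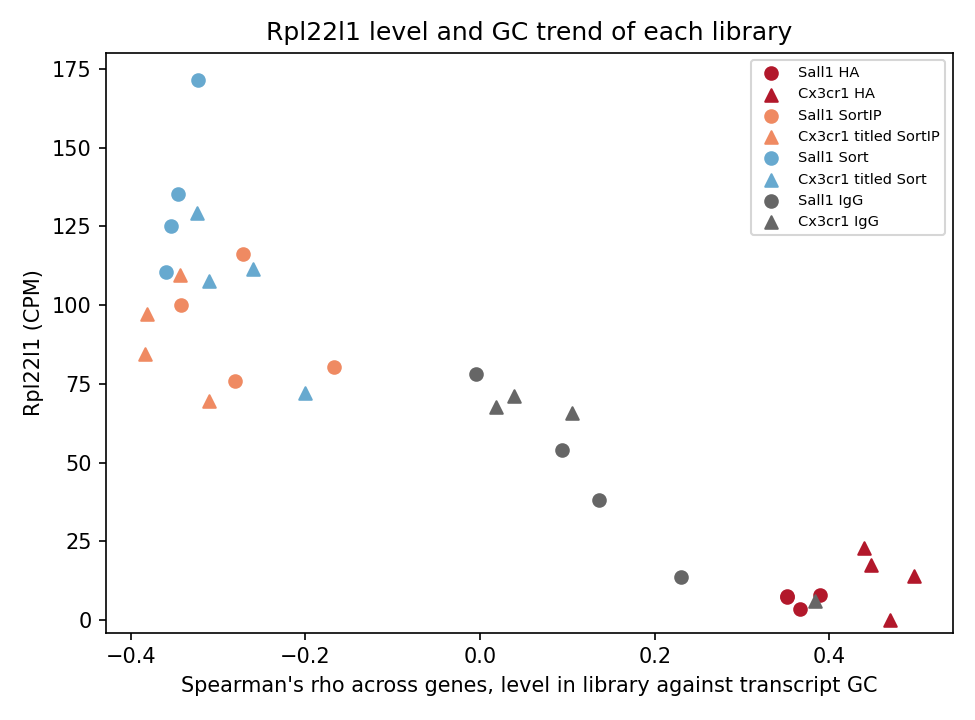
Rpl22l1 level (CPM) of each library against its GC trend, Spearman's rho across 12108 genes between transcript GC and relative level. Points are libraries, colours are sample kinds and shapes are lines. The 8 HA libraries and 1 Cx3cr1 IgG library make up the high end of rho, from 0.351 to 0.497, and have at most 22.9 CPM of Rpl22l1.

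Adjusting the fits for transcript properties, with the mouse as a block, measures how far the folds move with them. With the block alone, Rpl22l1 in HA against IgG was at −2.21 in the Sall1 and −1.53 in the Cx3cr1 line. In HA against SortIP it was at −3.63 in the Sall1 and −2.45 in the Cx3cr1 line. With length alone adjusted, Rpl22l1 in HA against IgG was at −3.58 ± 0.35 in the Sall1 and −2.49 ± 0.35 in the Cx3cr1 line, and in HA against SortIP at −4.85 ± 0.28 in the Sall1 and −3.13 ± 0.31 in the Cx3cr1 line, all farther from 0 than without adjustment. Adjusting GC as well brought each value nearer to 0 than length alone did. Set against the block alone, GC and length together put HA against IgG farther from 0 and HA against SortIP nearer to it, in both lines. In HA against IgG Rpl22l1 was then at −2.65 ± 0.29 in the Sall1 line (adjusted p = 1.46e-08, edgeR) and −1.72 ± 0.34 in the Cx3cr1 line (adjusted p = 2.11e-05, edgeR). In HA against SortIP it was at −2.69 ± 0.27 in the Sall1 line (adjusted p = 6.56e-19, edgeR), whereas in the Cx3cr1 line it shrank to −0.86 ± 0.34 (adjusted p = 0.0227, edgeR). Rpl22 in HA against IgG was 1.29 ± 0.15 and 1.47 ± 0.18 in the Sall1 and Cx3cr1 lines. In HA against SortIP the adjusted value of Rpl22 was 0.22 ± 0.17 in the Sall1 line (adjusted p = 0.224, edgeR), which ends the call, and 0.68 ± 0.18 in the Cx3cr1 line.

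In HA against IgG without adjustment, Rpl22 moved with many of the cytosolic ribosomal protein genes, and Rpl22l1 with few. In Sall1 HA against IgG 50 of 75 measured members, Rpl22 included, were higher and 6 lower, and 19 were not called (median 0.89, all genes −0.03). Of all genes tested 35.2% were called higher and 36.1% lower there. Rpl22 ranked 14 from the top, and 1 member lay below Rpl22l1, namely Rpl39 at −4.04 ± 0.44 (adjusted p = 7.76e-07, edgeR). The next lowest called member was Rpl5 at −1.29 ± 0.34 (adjusted p = 0.00271, edgeR). The called members at the other end were Rpl36 (2.65 ± 0.25) and Rpl37a (2.42 ± 0.22). In Cx3cr1 HA against IgG 53 of 72 were higher, 2 lower and 17 not called (median 1.12, all genes −0.28), beside 28.6% of all genes called higher and 36% lower. Rpl22 ranked 26 there, Rps9 (2.79 ± 0.17) and Rpl37a (2.49 ± 0.23) were at the top, and Rpl17 at −2.51 ± 0.69 (adjusted p = 0.00487, edgeR) and Rps15a at −0.85 ± 0.32 (adjusted p = 0.0286, edgeR) at the low end. These genes have many near-identical copies in the genome, so their values are uncertain where reads could be split.

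The direction of that list in the Sall1 line depends on the adjustment. With GC and length adjusted and the mouse as a block, 12 were higher and 36 lower in Sall1 HA against IgG (median −0.43), and 31 higher and 14 lower in Cx3cr1 HA against IgG. Without TMM scaling the split was 35 higher and 12 lower in the Sall1 and 37 higher and 6 lower in the Cx3cr1 line. Rpl22 was higher in each of these fits in both lines.

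**Figure D5:**
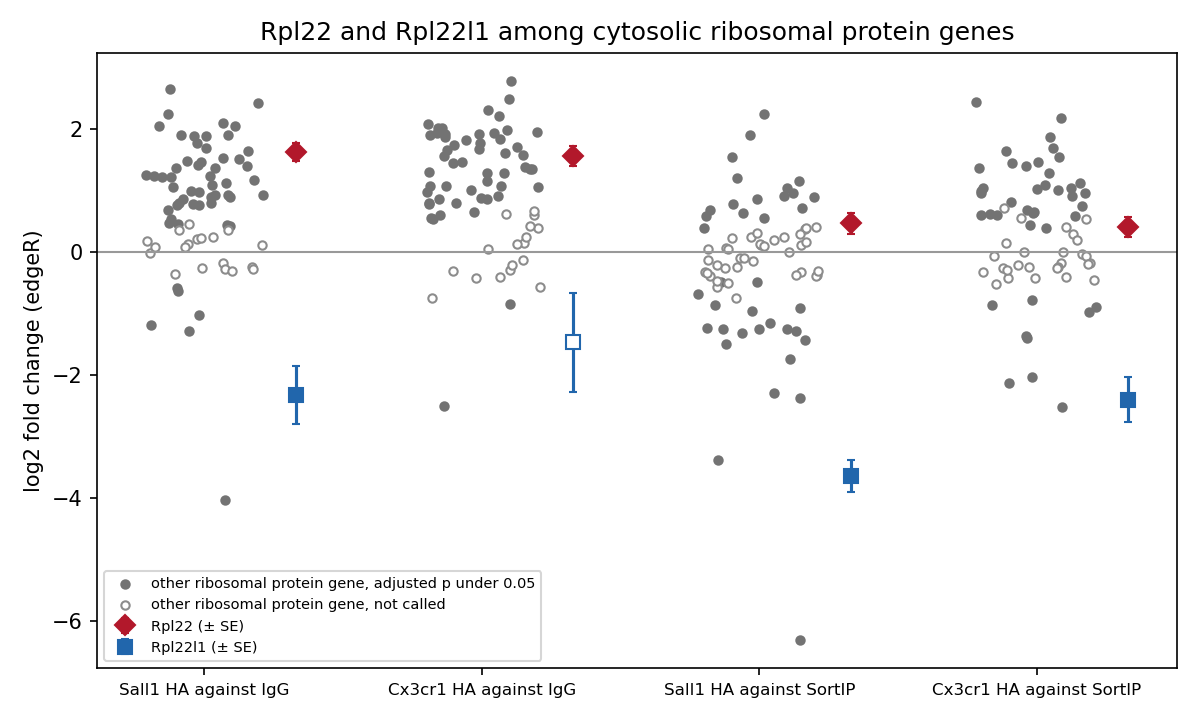
Log2 fold changes (edgeR) of the measured cytosolic ribosomal protein genes (grey, filled where the adjusted p is under 0.05) in HA against IgG and HA against SortIP, with Rpl22 (diamond) and Rpl22l1 (square) shown with their SE. In each of the 4 comparisons 1 ribosomal protein gene lies below Rpl22l1.

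In HA against SortIP 18 of 75 measured members were higher and 20 lower in the Sall1 line (median −0.10, all genes 0.12), beside 42.4% of all genes called higher and 37.8% lower. With the mouse as a block the split was 2 higher and 59 lower with length adjusted (median −1.19) and 3 higher and 58 lower with GC and length adjusted (median −1.29). Without TMM scaling 14 were higher and 28 lower. The unadjusted values ran up to 2.25 ± 0.21 for Rpl37a and 1.91 ± 0.17 for Rpl14, and down to −3.39 ± 0.27 for Rps4x and −6.31 ± 0.29 for Rpl39. In the Cx3cr1 line 33 of 69 were higher and 9 lower (median 0.42, all genes −0.12), beside 32.6% of all genes called higher and 37.5% lower, with Rpl37a (2.45 ± 0.21) and Rpl14 (2.19 ± 0.17) at the top and Rpl30 (−2.13 ± 0.42) and Rpl39 (−2.52 ± 0.24) at the low end. That split turned under adjustment, to 17 higher and 25 lower with the block and length (median −0.10) and 16 higher and 23 lower with the block, GC and length (median −0.18), and without TMM scaling it was 24 higher and 16 lower. Rpl39, which lay below Rpl22l1 in both lines, has a transcript GC of 48.7%, against 40.6% for Rpl22l1. Across the measured members rho between fold change and transcript GC was 0.245 in the Sall1 and 0.373 in the Cx3cr1 line, a description over genes.

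Other ribosomal protein paralogs did not share the direction of Rpl22l1 in HA against IgG. Of 8 with a row, 5 were measured, and the other 4 were higher in HA than in IgG in both lines. Of all genes tested 35.2% were called higher there in the Sall1 and 28.6% in the Cx3cr1 line. Rps27l, a paralog of Rps27 and a p53 target, was higher by 2.98 ± 0.22 in the Sall1 and 2.25 ± 0.30 in the Cx3cr1 line. Rpl36al was higher by 1.60 ± 0.19 and 2.00 ± 0.19 in the Sall1 and Cx3cr1 lines, Rpl7l1 by 1.55 ± 0.15 and 1.41 ± 0.20, and Rps4l by 1.58 ± 0.17 and 1.81 ± 0.22 (largest adjusted p of the 8 values 1.55e-05, edgeR). Their transcript GC was 43.1% for Rps27l, 50.2% for Rpl36al, 49.2% for Rpl7l1 and 59.1% for Rps4l, all above Rpl22l1. In HA against SortIP Rps27l was higher in the Sall1 line (0.94 ± 0.21) and at −0.04 ± 0.22 in the Cx3cr1 line. Rpl36al, Rpl7l1 and Rps4l were not called in that comparison in the Sall1 line (0.19 ± 0.18, 0.28 ± 0.19 and 0.34 ± 0.19). In the Cx3cr1 line these paralogs were higher (0.99 ± 0.19, 0.58 ± 0.19 and 1.45 ± 0.21, largest adjusted p 0.00886, edgeR). Of all genes tested 42.4% were called higher in the Sall1 and 32.6% in the Cx3cr1 line.

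Other mRNAs with a 5′ terminal oligopyrimidine (TOP) motif, which are translated under the same control as ribosomal protein mRNAs, were called in both directions. In Sall1 HA against IgG 5 of 16 were higher and 8 lower (median −0.21), and in Cx3cr1 HA against IgG 8 were higher and 3 lower (median 0.45). In HA against SortIP 5 of 16 were higher and 9 lower in the Sall1 line (median −0.68), and 6 of 15 were higher and 4 lower in the Cx3cr1 line (median 0.45). Over all genes tested the shares were 35.2% higher and 36.1% lower in Sall1 HA against IgG, 28.6% and 36% in Cx3cr1 HA against IgG, 42.4% and 37.8% in Sall1 HA against SortIP, and 32.6% and 37.5% in Cx3cr1 HA against SortIP. With 16 members or fewer, nothing particular to these mRNAs is read from the counts.

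Sorted cells were set against IgG to compare RNA of microglia with the background of whole brain. Both genes were higher in Sort in the Sall1 line, Rpl22 by 1.22 ± 0.17 (adjusted p = 1.93e-06, edgeR) and Rpl22l1 by 1.65 ± 0.41 (adjusted p = 0.00299, edgeR), while 78.2% of all genes were called. In the Cx3cr1 line, where 73.8% were called, Rpl22 was higher in titled Sort by 0.93 ± 0.18 (adjusted p = 0.000233, edgeR). Rpl22l1 had 1.11 ± 0.48 there (adjusted p = 0.0502, edgeR), and 0.57 ± 0.52 with the libraries grouped by description (adjusted p = 0.336, edgeR). Grouped by title with the mouse as a block it was at 1.33 ± 0.35 (adjusted p = 0.00631, edgeR). With GC and length adjusted as well, Rpl22l1 was at −0.04 ± 0.34 in the Sall1 line (adjusted p = 0.914, edgeR) and −0.04 ± 0.24 in the Cx3cr1 line (adjusted p = 0.884, edgeR), so that these differences were not seen in that fit, whereas Rpl22 was at 1.25 ± 0.18 and 0.90 ± 0.16.

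Neither gene passed the test when precipitated and unprecipitated sorted cells were compared. SortIP against Sort gave −0.18 ± 0.16 for Rpl22 and −0.43 ± 0.19 for Rpl22l1 in the Sall1 line (adjusted p = 0.491 and 0.142, edgeR). In the Cx3cr1 line it gave −0.01 ± 0.14 and −0.33 ± 0.19 for titled SortIP over titled Sort (adjusted p = 0.968 and 0.263, edgeR), and grouped by description the same values have the opposite sign. Of all genes, 10.5% were called in the Sall1 and 12.8% in the Cx3cr1 line. Rpl22l1 was called in other fits, in the Sall1 line without TMM scaling (−0.57 ± 0.19, adjusted p = 0.0474, edgeR) and in the Cx3cr1 line with the block, GC and length (−0.61 ± 0.14, adjusted p = 0.0102, edgeR). In the Sall1 line that adjusted fit gave −0.09 ± 0.17 (adjusted p = 0.764, edgeR). The values leave room for a moderate change in Rpl22l1, whose SE is 0.19 in both.

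Between the lines Rpl22 was called in Sort (titled Sort in the Cx3cr1 line), and in HA only in 1 fit over all 8 groups (0.46, adjusted p = 0.0112, edgeR). It was higher in Sall1 Sort than in Cx3cr1 titled Sort by 0.45 ± 0.14 (adjusted p = 0.0238, edgeR), in a comparison that called 23.9% of all genes. By the descriptions titled Sort is the precipitate, so this comparison may set unprecipitated against precipitated cells. The call was lost when the Cx3cr1 libraries were grouped by description (0.46, adjusted p = 0.119, edgeR) or when both sorted libraries of each mouse were summed (0.39, adjusted p = 0.0897, edgeR). It was also lost without Sall1 Sort of mouse 7, without titled Sort of mouse 2 or without titled Sort of mouse 4 (0.35 to 0.54 over the 8 libraries left out in turn, adjusted p up to 0.0971, edgeR). In SortIP Rpl22 was at 0.29 ± 0.16 (adjusted p = 0.25, edgeR; 10.7% of all genes called), and in HA at 0.06 ± 0.16 (adjusted p = 0.759, edgeR; 52.9% called), although its CPM values did not overlap between the HA groups, as for 50.3% of all genes tested. Without TMM scaling the HA value was 0.26 (adjusted p = 0.166, edgeR) and the median of all genes 0.24.

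Rpl22l1 was not called between the lines. It was at 0.26 ± 0.18 in Sort (adjusted p = 0.313, edgeR) and 0.17 ± 0.20 in SortIP (adjusted p = 0.623, edgeR). In Sall1 HA against Cx3cr1 HA it did not pass the low-count filter, and its CPM values gave an exact permutation p of 0.229. The IgG groups differed by 0.17 ± 0.15 for Rpl22 and −0.25 ± 0.65 for Rpl22l1 (adjusted p = 1 for each, edgeR), with 0.00863% of all genes called.

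The genes whose pattern over the 8 group means was most like each paralog were found by Pearson's r of mean log2 CPM, among 7528 genes. For Rpl22 these were Gm15772, Gm5617 and Rpl26 (r = 0.982 each), Tmem208 (0.981) and Cd63 (0.98). Gm15772 and Rpl26 had nearly the same mean in every group (for example 580 and 581 CPM in Sall1 HA and 322 CPM each in Sall1 IgG), so they count as 1 profile. For Rpl22l1 the most alike were Nup88 (0.996), Psme4 (0.995), Tmx3 (0.993), Exoc5 (0.993) and Ddx3x (0.993). Nup88, which encodes a nuclear pore protein, averaged 7.73 CPM in the HA, 78.2 CPM in the SortIP, 94.9 CPM in the Sort and 34.5 CPM in the IgG libraries of the Sall1 line. In the Cx3cr1 line its means were 9.27 CPM in HA, 76.8 CPM in titled SortIP, 69.2 CPM in titled Sort and 37.6 CPM in IgG. Transcript GC ranged from 35.3% for Tmx3 to 47.1% for Nup88, and the transcripts of these 5 genes, at 2466 to 6393 bases, are all longer than Rpl22l1. The 8 means share libraries and depth between genes, and r is a description.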

How the data were processed

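Raw read counts over exons were deposited by the authors for 24411 genes in 32 libraries, not normalized. The submitters' processing notes name HOMER, HISAT 0.1.5, bcl2fastq and the build mm9. CPM were computed from gene counts, which per library ranged from 249881 to 4047465 and set the precision, and bounds at 3 counts cover counting error only. The members and gene lists were chosen with earlier results of these data known.

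Each comparison was fitted over all genes with edgeR 4.0.16 (R 4.3.3; robust quasi-likelihood, TMM, low-count filter with minimum count 10) on the libraries of the groups compared, and tested on simulated data. DESeq2 1.42.0, no TMM, other size factors, no filter, 1 fit over all groups, grouping by description, sums per mouse and each library left out were alternatives. Adjustment for GC and length used natural splines (5 degrees of freedom) on log2 CPM deviations. The GC adjustment and fits without 2 IgG libraries were chosen after seeing the data. Transcript GC came from GENCODE vM21 and was matched for 99.1% of genes. Sequences are from the GRCm38 reference genome.

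The series' design has the samples of a mouse share a brain, and libraries with the same number come from 1 mouse. Over 48 such pairs, deviations from group means correlated by −0.112 to 0.224 (median 0.0406). Mice are the replicates. Named genes are both members in every comparison, the 5 most like each (mean log2 CPM of at least 4), the 2 highest and 2 lowest called ribosomal protein genes and each measured paralog. For the ribosomal protein genes and paralogs, only those of HA against IgG and HA against SortIP are named by this rule.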

Additional observations from a re-analysis of the deposited data

Results flagged for a closer look

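In 24 sets of 4 libraries (both genes and their ratio in 8 groups), 4 held a library far from the other 3, where chance gives about 1 in 20. The ratio is built from both genes, so the sets are not independent and no excess over that rate is read. Rpl22l1 was at 3.63 CPM in Sall1 HA of mouse 21, against 7.40 to 7.92 CPM in the other 3. It was at 6.07 CPM in Cx3cr1 IgG of mouse 2, against 65.9 to 71.2 CPM, and the log2 ratio of Rpl22l1 to Rpl22 there was −2.0, against 1.36 to 1.56. In Cx3cr1 HA of mouse 2 the log2 ratio was −5.27, against −1.78 to −1.23, with 0 reads of Rpl22l1. No Rpl22 level stood apart in this way.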

How the results depend on the processing

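Of 240 alternative values other than single libraries left out, 202 kept their direction and side of the threshold, 7 lost a call, 11 gained one and 20 changed sign. Rpl22 in HA against IgG and Rpl22l1 in HA against SortIP held in both lines under every alternative run. Where a value below changed, the cause was not tested unless the construction of the alternative shows it. Depth limits Rpl22l1 most in Cx3cr1 HA, with 10 reads or fewer a library, and it could not be fitted in Sall1 HA against Cx3cr1 HA because it failed the low-count filter.

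All values are log2 differences. With the mouse as a replicate block, Rpl22l1 in Cx3cr1 HA against IgG was called at −1.53 (block alone), −2.49 (block with length) and −1.72 (block with GC and length), and in Cx3cr1 titled Sort against IgG at 1.33 (block) and 1.30 (block with length), but not at −0.0395 (block with GC and length). The block alone changed no other call of either gene. Block with GC and length put Rpl22l1 at −0.042 in Sall1 Sort against IgG, and gained calls at −1.40 for the difference between lines in HA over IgG and −0.61 in Cx3cr1 titled SortIP against titled Sort. Rpl22 in Sall1 HA against SortIP lost its call with the block and length (0.095) or GC and length (0.22). The block with length put Rpl22 at −0.26 in the difference between lines and 0.016 in Cx3cr1 titled SortIP against titled Sort, and with GC and length at −0.29 and 0.004. GC and length without block gave −0.072 for Rpl22 in Sall1 HA against Cx3cr1 HA (−0.02 with length only) and −0.24 for Rpl22l1 in Sall1 Sort against Cx3cr1 titled Sort.

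Without TMM scaling Rpl22 in HA against SortIP lost its call in the Sall1 (0.31) and Cx3cr1 line (0.18), Rpl22l1 in Sall1 SortIP against Sort gained one (−0.57), and Rpl22 in Cx3cr1 titled SortIP against titled Sort was at 0.12. Without the low-count filter Rpl22 was at 0.36 in Cx3cr1 HA against SortIP, no longer called, and at 0.0085 in Cx3cr1 titled SortIP against titled Sort. One fit over all 8 groups called Rpl22l1 in Cx3cr1 HA against IgG (−1.81) and titled Sort against IgG (0.97) and Rpl22 in Sall1 HA against Cx3cr1 HA (0.46), and put Rpl22 at 0.0024 in titled SortIP against titled Sort. The difference between lines for Rpl22 was −0.079 with median-ratio size factors and −0.056 with DESeq2. Grouping by description gave titled SortIP against titled Sort the opposite sign, 0.0105 for Rpl22, 0.33 for Rpl22l1 and 0.33 for the ratio, as its construction requires. Between lines it gave 0.46 for Rpl22 in Sort, no longer called, −0.17 for Rpl22l1 in SortIP and 0.15 for the ratio in Sort, and the sum of both sorted libraries of each mouse gave 0.39 for Rpl22, not called.

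With each library left out in turn, Rpl22l1 ranged from −1.79 to −1.11 in Cx3cr1 HA against IgG, called only without IgG of mouse 2, and from 0.75 to 1.26 in titled Sort against IgG, called only without IgG of mouse 2 or mouse 4. Rpl22 ranged from 0.33 to 0.51 in Cx3cr1 HA against titled SortIP, from 0.32 to 0.59 in Sall1 HA against SortIP and from 0.35 to 0.54 in Sort between lines. Values that were not called ranged from −0.03 to 0.065 (Rpl22, difference between lines), −0.67 to 0.10 (Rpl22l1, IgG between lines) and −0.0805 to 0.083 (Rpl22, Cx3cr1 titled SortIP against titled Sort). The ratio ranged from −3.93 to −2.12 in Cx3cr1 HA against IgG, −4.29 to −3.47 in Sall1 HA against IgG, −3.74 to −2.39 in Cx3cr1 HA against titled SortIP, −1.30 to −0.43 for the difference between lines, −1.81 to −0.46 in HA between lines, −1.03 to 0.36 in IgG between lines, −0.15 to 0.0315 in SortIP between lines and −0.27 to 0.92 in Cx3cr1 titled Sort against IgG. Without both low IgG libraries Rpl22 was at −0.039 and the ratio at −1.37 in the difference between lines.

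Counts of called ribosomal protein genes moved by over 1.5 times from the main fit (edgeR with TMM, no block, no adjustment) in the comparisons below. In the difference between lines they went from 15 to 43 with length or GC adjusted. In Sall1 HA against Cx3cr1 HA they went from 34 to 22 without TMM scaling and to 52 adjusted. In Sall1 HA against SortIP they went from 38 to 61 adjusted. They also moved in the 4 comparisons within sorted libraries, where 0 to 15 were called.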
